A study of Mus musculus with 18 samples.

Results

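Bnip3, Adm and Slc2a1 are 3 genes that cells switch on when oxygen is short, and all array probes annotated with one of these symbols were followed across 3 days of embryonic stem cell differentiation. The members are 5 probes of 15247 gene probes on the arrays: 1 for Bnip3, 3 for Adm and 1 for Slc2a1. Each probe is a spotted cDNA clone, named here by its clone. The cells were i-Mixl1 mouse embryonic stem cells, named for the homeobox gene Mixl1, differentiating as embryoid bodies, with DOX (doxycycline, 0.1 ug/ml, added 1 day after plating) or without it as the control. Treated and control cells were of the same i-Mixl1 line. What DOX switches on in that line, by which promoter, and whether the line is 1 clone are not given in the sources used here. Embryoid bodies were harvested on 3 days (2, 3 and 4), giving 6 groups of 3 biological replicates, and each of the 9 arrays held the DOX and the control sample of 1 day and replicate number. Mixl1 was not among the gene names of the array, and its level was not analysed here.

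In low oxygen the prolyl hydroxylases of the EGLN family stop marking HIF-1alpha and HIF-2alpha for destruction, and these partner with ARNT and bind short motifs near their target genes. Bnip3 encodes a BCL2-related protein of the outer mitochondrial membrane that takes part in mitophagy, the removal of mitochondria by autophagy. Adm encodes adrenomedullin, a secreted peptide that widens vessels and acts through the receptor Calcrl with a Ramp partner. Slc2a1 encodes GLUT1, the glucose transporter that feeds glycolysis in most embryonic cells.

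The promoters of the 3 genes are shown because the genes share HIF as a known regulator. Each is the RefSeq sequence from 250 bases before to 50 bases after the gene's start in GRCm38.p6, 5′ to 3′ on the gene's strand. The Bnip3 window is chr7:138909457-138909756 on the minus strand, that of Adm is chr7:110627407-110627706 on the plus strand, and that of Slc2a1 is chr4:119108495-119108794 on the plus strand. Capitals mark ACGTG or GCGTG, the core of the hypoxia response element, read on either strand.
Bnip3: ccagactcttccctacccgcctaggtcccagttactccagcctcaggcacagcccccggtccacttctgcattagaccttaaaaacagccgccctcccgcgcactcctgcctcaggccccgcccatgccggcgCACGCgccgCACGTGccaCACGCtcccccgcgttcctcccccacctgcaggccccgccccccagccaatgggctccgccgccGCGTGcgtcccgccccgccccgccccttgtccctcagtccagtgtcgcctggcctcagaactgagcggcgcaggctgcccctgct
Adm: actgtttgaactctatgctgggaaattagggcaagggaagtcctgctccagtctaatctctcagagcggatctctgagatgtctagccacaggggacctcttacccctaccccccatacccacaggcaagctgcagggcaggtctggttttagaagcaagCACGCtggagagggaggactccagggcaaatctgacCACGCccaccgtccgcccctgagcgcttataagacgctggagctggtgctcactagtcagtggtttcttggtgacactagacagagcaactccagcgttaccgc
Slc2a1: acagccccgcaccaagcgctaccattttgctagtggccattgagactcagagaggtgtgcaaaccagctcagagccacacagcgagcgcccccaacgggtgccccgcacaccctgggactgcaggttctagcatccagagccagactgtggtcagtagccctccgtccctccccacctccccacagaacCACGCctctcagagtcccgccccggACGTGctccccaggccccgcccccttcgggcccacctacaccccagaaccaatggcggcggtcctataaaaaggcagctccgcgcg
Bnip3 held 5 matches, in 4 runs of capitals because 2 of them overlap on opposite strands. Adm held 2 matches and Slc2a1 held 2. Of 32851 RefSeq mouse promoters of the same length, 43.8% held at least 1 match, 20.6% at least 2 and 1.66% at least 5. A match is a run of letters in this window, and binding was not measured.

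Median intensity ran from 209 to 466 in the red channel and from 252 to 491 in the green channel over the 9 arrays. The share of gene probes with a signal-to-noise ratio of at least 1.4 was 54.3 to 65.6% in red and 62.0 to 70.1% in green. The number of arrays, 3 for each day, limits the precision. In the deposited value table the DOX columns equal the red channel and the control columns the green, whereas the labels give Cy3, the green dye, to DOX samples and Cy5 to controls. Every ratio below is therefore red over green. A value below 0 means lower with DOX if the value table is right, and higher with DOX if the dye labels are right. All arrays carried the dyes the same way round, so within a day dye and treatment cannot be told apart, whereas any dye bias that a probe shows equally on all days cancels when days are compared. Ratios are on the log2 scale with the standard error of the limma fit, and adjusted p-values (Benjamini-Hochberg, limma) cover all probes tested, with 0.05 as the threshold.

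At day 3 all 5 probes of the 3 genes were lower in red than in green, as were 11.0% of all probes tested. At day 4 the Bnip3 probe and the 3 Adm probes were lower, against 9.45% of all probes, and the Slc2a1 probe was higher. On these days 9.14% and 7.97% of all probes were higher, respectively. At day 2 the Bnip3 and Slc2a1 probes and 2 of the 3 Adm probes did not pass. The third Adm probe, H3007E06, passed at day 2, against 1.92% of all probes lower and 1.38% higher, but it was near background and is described apart. In whole embryoid bodies, fewer cells that express a gene and less RNA in each cell cannot be told apart.

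**Figure D1:**
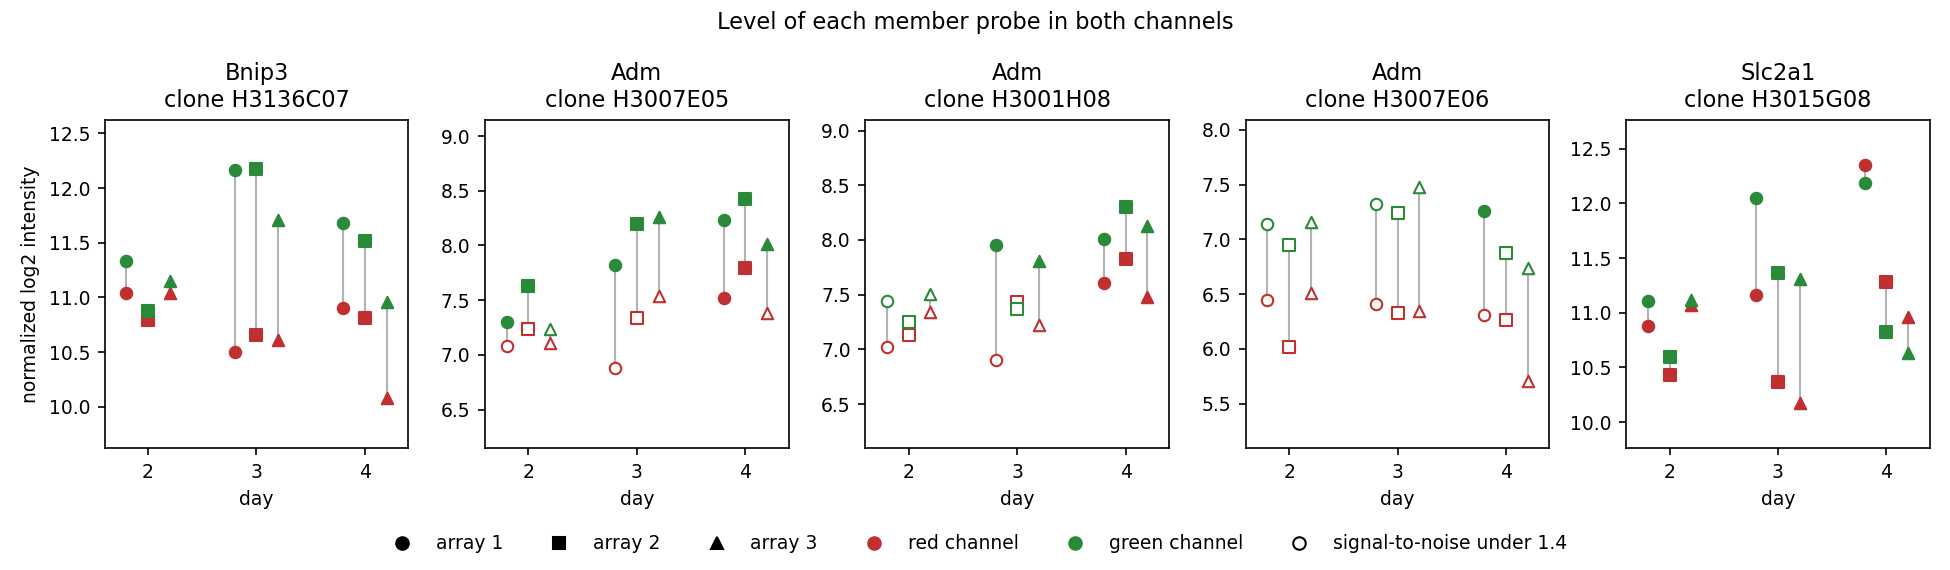
Normalized log2 intensity of the 5 member probes (vertical axis, each panel spanning 3 log2 units) by day (horizontal axis), with both channels of an array joined by a line and open symbols where the signal-to-noise ratio was under 1.4. The green Bnip3 values of day 3 (11.71 to 12.17) lie above the red ones (10.50 to 10.66), and the Slc2a1 pairs change order between day 3 and day 4.

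Bnip3 (clone H3136C07) was bright, with a signal-to-noise ratio of at least 1.4 in 18 of 18 channel readings. At day 2 its red intensity was 2704, 1879 and 1879 on arrays 1, 2 and 3, and its green intensity was 3629, 1841 and 2173. These day 2 ranges overlapped. At day 3 the red intensity was 873, 1828 and 1299 and the green was 3463, 5186 and 2572. Every green value of day 3 exceeded every red one. At day 4 red was 1719, 1848 and 1059 and green was 2347, 2780 and 2125, again without overlap.

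The Bnip3 ratio was -0.16 ± 0.098 at day 2 (adjusted p = 0.411 by limma), with all 3 arrays a little below 0. It was -1.42 ± 0.098 at day 3 (adjusted p = 1.12e-07), a 2.68-fold lower red than green level, with single arrays from -1.66 to -1.10. Only 16 of 15247 probes had a lower day 3 ratio. At day 4 the ratio was -0.79 ± 0.098 (adjusted p = 4.35e-05), or 1.73-fold lower in red, with the 3 arrays between -0.88 and -0.71. The day 3 call passed under each alternative tried. The day 4 call passed under all but the fit that ignored which samples shared an array (adjusted p = 0.183).

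Between days the Bnip3 ratio fell by 1.26 from day 2 to day 3 (SE 0.139, adjusted p = 0.000104 by limma), which 1.92% of all probes also did at the same threshold. Only 4 of 15246 probes had a more negative difference. From day 3 to day 4 it rose by 0.64 (SE 0.139, adjusted p = 0.0092), as 3.94% of probes did. The ratio of day 4 stayed below that of day 2 (difference -0.62, SE 0.139, adjusted p = 0.0119), against 3.15% of probes. The rise was lost without replicate 1 (0.51, adjusted p = 0.11) or replicate 2 (0.55, adjusted p = 0.228). The difference of day 4 from day 2 was lost without replicate 2 (adjusted p = 0.15) or replicate 3 (adjusted p = 0.0741).

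In normalized single-channel levels, Bnip3 was highest in green at day 3 (12.01 ± 0.27, SD, n = 3, log2 intensity). Green at day 4 (11.38 ± 0.38) and green at day 2 (11.12 ± 0.23) followed. Red was 10.96 ± 0.14 at day 2, 10.60 ± 0.45 at day 4 and 10.59 ± 0.09 at day 3. The 3 green values of day 3 lay just above those of day 4, and every other pair of neighbours in this order overlapped. Over days within a channel no Bnip3 difference passed the test. The nearest was green from day 2 to day 3, at 0.89 ± 0.23 (adjusted p = 0.173, limma), and the red difference over the same days was -0.37 ± 0.22 (adjusted p = 0.755).

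The array's quality notes list the Bnip3 clone as having given no PCR product. Of 1339 probes with that note, 15.5% reached the signal-to-noise limit in all 18 readings, as the Bnip3 probe did, against 49.2% of 13016 probes noted as a single band. Probes with the note were called at day 3 in 16.7% of cases and single-band probes in 20.8%. What the Bnip3 spot carries was not tested.

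Slc2a1 (clone H3015G08, a single band by the notes) was also at or above the signal-to-noise limit in 18 of 18 readings. Its red intensity was 2426, 1432 and 1927 at day 2, and the green was 3086, 1498 and 2125. The channels overlapped there. At day 3 red was 1462, 1493 and 933 and green was 3219, 2945 and 1927, with no overlap. At day 4 red was 5169, 2631 and 2032 against 3540, 1699 and 1675 in green. Red exceeded green on each of these arrays, although the ranges overlapped because array 1 was bright in both channels.

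The Slc2a1 ratio was -0.15 ± 0.084 at day 2 (adjusted p = 0.384 by limma) and -1.0 ± 0.084 at day 3 (adjusted p = 7.02e-07), a 2.0-fold lower red level. At day 4 it was 0.31 ± 0.084 (adjusted p = 0.0173), 1.24-fold higher in red, with single arrays from 0.16 to 0.46. The day 4 call was lost without replicate 2 (0.24, adjusted p = 0.208) or without replicate 3 (0.31, adjusted p = 0.121). The fit that ignored the shared array lost both the day 3 call (adjusted p = 0.571) and the day 4 call (adjusted p = 1.0).

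**Figure D2:**
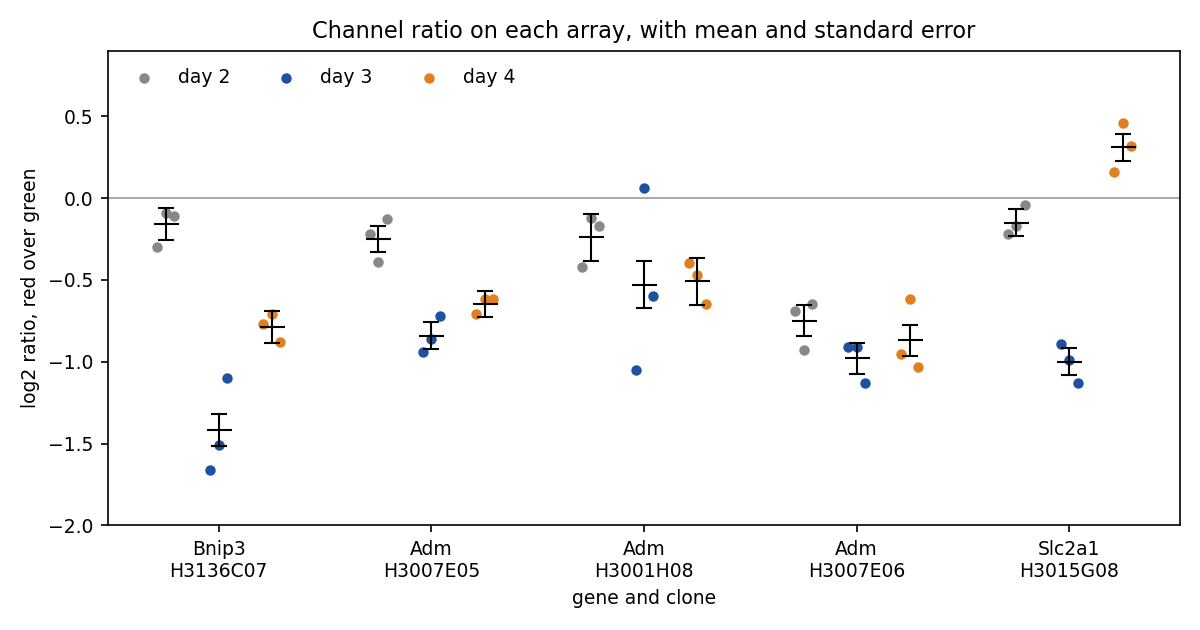
Log2 ratio of red over green (vertical axis) for each member probe (horizontal axis) at day 2, day 3 and day 4. Points are single arrays, and bars are the mean with its standard error from the limma fit. Bnip3 is lowest at day 3 (-1.42), and Slc2a1 passes from -1.0 at day 3 to 0.31 at day 4.

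The change of the Slc2a1 ratio from day 3 to day 4 was an increase of 1.31 (SE 0.118, adjusted p = 2.47e-06 by limma). It placed the probe at the 99.8th percentile of all probes, of which 3.94% rose. From day 2 to day 3 the ratio fell by 0.85 (SE 0.118, adjusted p = 0.000735). These 2 differences passed without any 1 replicate, and were lost only in the unpaired fit (adjusted p = 1.0 for both). The ratio at day 4 was 0.46 above that at day 2 (SE 0.118, adjusted p = 0.0282), as it was for 3.41% of probes. That last call was lost without replicate 1 (adjusted p = 0.0605), replicate 2 (adjusted p = 0.301) or replicate 3 (adjusted p = 0.115).

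Single-channel levels of Slc2a1 were 11.57 ± 0.42 in green at day 3, 11.53 ± 0.73 in red at day 4 and 11.22 ± 0.85 in green at day 4 (SD, n = 3, log2 intensity). They were 10.94 ± 0.30 in green at day 2, 10.79 ± 0.33 in red at day 2 and 10.57 ± 0.52 in red at day 3. All neighbours in this order overlapped. None of its differences over days within a channel passed; red from day 3 to day 4 was 0.96 ± 0.37 (adjusted p = 0.339, limma). The spread of Slc2a1 between arrays of a day was larger in single channels than in the ratio of the channels of 1 array.

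Adm was far dimmer. Clone H3007E05, the brightest of its 3 probes, reached the signal-to-noise limit in 10 of 18 readings. At day 2 its red intensity was 70, 64 and 30 on arrays 1, 2 and 3, against 107, 108 and 49 in green. At day 3 red was -24, 74 and 77 against 106, 232 and 179 in green. At day 4 red was 74, 116 and 50 against 162, 221 and 163 in green. Green exceeded red on each of the 9 arrays, and the raw ranges of red and green did not overlap at day 3 or day 4. Red was not well above background at day 2 or day 3.

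The ratio of Adm by H3007E05 was -0.25 ± 0.080 at day 2 (adjusted p = 0.118 by limma). At day 3 it was -0.84 ± 0.080 (adjusted p = 2.69e-06 by limma), or 1.79-fold lower in red, which was not well above background. A bound sets the bright channel's mean against the higher of the dim probe's own signal and the lowest signal past the limit. Here the probe's own signal was the higher on each array, so the bound equalled the estimate and set no minimum. At day 4 the ratio was -0.65 ± 0.080 (adjusted p = 3.65e-05), or 1.57-fold lower in red, and single arrays ran from -0.71 to -0.62. The size of a dim ratio depends on the background step. With plain subtraction the day 3 ratio was -1.42 and the day 4 ratio -1.15, and from the deposited scaled values they were -2.20 and -1.40. All of these passed. The day 4 call was lost when the shared array was ignored (adjusted p = 0.181).

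The H3007E05 ratio fell by 0.59 from day 2 to day 3 (SE 0.113, adjusted p = 0.00904 by limma), against 1.92% of probes lower. It was 0.40 below day 2 at day 4 (difference -0.40, SE 0.113, adjusted p = 0.0454), against 3.15%. Both calls were lost without any 1 of the replicates, with adjusted p-values up to 0.109 and 0.308. From day 3 to day 4 the difference was 0.19 ± 0.113 (adjusted p = 0.44).

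In levels, H3007E05 was 8.22 ± 0.21 in green at day 4, 8.09 ± 0.24 in green at day 3 and 7.57 ± 0.21 in red at day 4 (SD, n = 3, log2 intensity). Green at day 2 was 7.39 ± 0.21, red at day 3 was 7.25 ± 0.34 and red at day 2 was 7.14 ± 0.08. The green values of day 3 lay just above the red ones of day 4, and the other neighbours overlapped. Green Adm rose by 0.83 from day 2 to day 4 (SE 0.18, adjusted p = 0.0296 by limma), as 2.97% of probes did. The second clone, H3001H08, gave 0.74 ± 0.18 for the same difference (adjusted p = 0.0418), but its green signal was not well above background at day 2, so this size is uncertain. Neither passed without any 1 replicate (adjusted p from 0.134 to 0.201 for H3007E05 and from 0.113 to 0.291 for H3001H08). No red difference over days passed for Adm; from day 2 to day 4 it was 0.43 ± 0.20 by H3007E05 (adjusted p = 0.303).

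Clone H3001H08 reached the limit in 8 of 18 readings. At day 2 its red intensity was 65, 50 and 51 against 130, 59 and 78 in green. Red was -24, 78 and 45 against 123, 82 and 113 in green at day 3, and 87, 122 and 61 against 130, 198 and 187 at day 4. The normalized levels of the 2 channels overlapped at day 2 and day 3 and stood apart at day 4. Of the day 3 ratios, 1 array stood at 0.06 and the lowest at -1.05. The ratio was -0.24 ± 0.143 at day 2 (adjusted p = 0.413 by limma), with both channels not well above background. At day 3 it was -0.53 ± 0.143 (adjusted p = 0.0178 by limma), or 1.44-fold lower in red, which was not well above background. At day 4 the ratio was -0.51 ± 0.143 (adjusted p = 0.0228 by limma), or 1.42-fold lower in red. Without replicate 1 the day 3 ratio was -0.27 (adjusted p = 0.225) and without replicate 3 it was -0.49 (adjusted p = 0.0609). The day 4 ratio was -0.44 without replicate 3 (adjusted p = 0.154). Both calls were also lost with plain subtraction (adjusted p = 0.258 at day 3 and 0.0895 at day 4), with the deposited scaled values (0.0647 and 0.213) and in the unpaired fit (0.315 and 0.388). The day 3 call was lost when spots flagged as not found were left out (-0.30, adjusted p = 0.121) and when each day was fitted alone (adjusted p = 0.0545). No difference of this clone's ratio between days passed.

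Clone H3007E06 was at background. Its red intensity was below 0 on all 9 arrays (from -73 to -2), its green intensity ran from 21 to 76, and the scanner had flagged the spot as not found on all 9 arrays. A signal-to-noise ratio of at least 1.4 occurred in 1 of 18 readings. Its ratios of -0.75, -0.98 and -0.87 at day 2, day 3 and day 4 (each ± 0.094) passed the test (adjusted p at most 0.000127, limma), but both channels were not well above background at day 2 and day 3, so they are given no fold there. At day 4 the bound was a 1.27-fold lower red level, but only 1 of 3 green readings was past the limit, so that size is uncertain. The difference of day 3 from day 2 was -0.23 ± 0.133 (adjusted p = 0.425).

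Where the clones came from was set beside these ratios. Clone names end in a letter and a number that read as a well of a plate. Of the 159 probes from well E06, 30.2% were lower in red at day 2, 32.7% at day 3 and 35.2% at day 4, where the median over 96 wells was 0.629, 10.1 and 8.52%. Wells D06, D07, E06 and E07, picked out after the values were seen, ranged from 20.1 to 30.2% at day 2, while no other well exceeded 3.14%. The other member clones came from other wells. Bnip3's well C07 had 2.52, 12.6 and 10.7% of probes lower at the 3 days, and well E05 of the brightest Adm clone had 0.629, 10.1 and 7.55%. Slc2a1's well G08 had 0.0, 17.1 and 14.6% lower, and well H08 of the second Adm clone had 1.90, 13.9 and 15.8%. With print-tip loess, which fits each print block apart, the H3007E06 ratios were nearer 0, at -0.65, -0.70 and -0.57 at the 3 days, and still passed. The part of the well in the ratio of H3007E06 was not tested. The print block of H3007E06 had 15.4, 23.9 and 27.7% of its 318 probes lower at the 3 days. This is not a separate observation, because clones of well E06 were printed in that block. Source well and print position therefore cannot be told apart here. The blocks of the other 4 member probes had 0.631 to 1.57% lower at day 2, 9.75 to 15.5% at day 3 and 6.92 to 14.8% at day 4. The median ratio in these 5 blocks lay between -0.11 and 0.03.

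**Figure D3:**
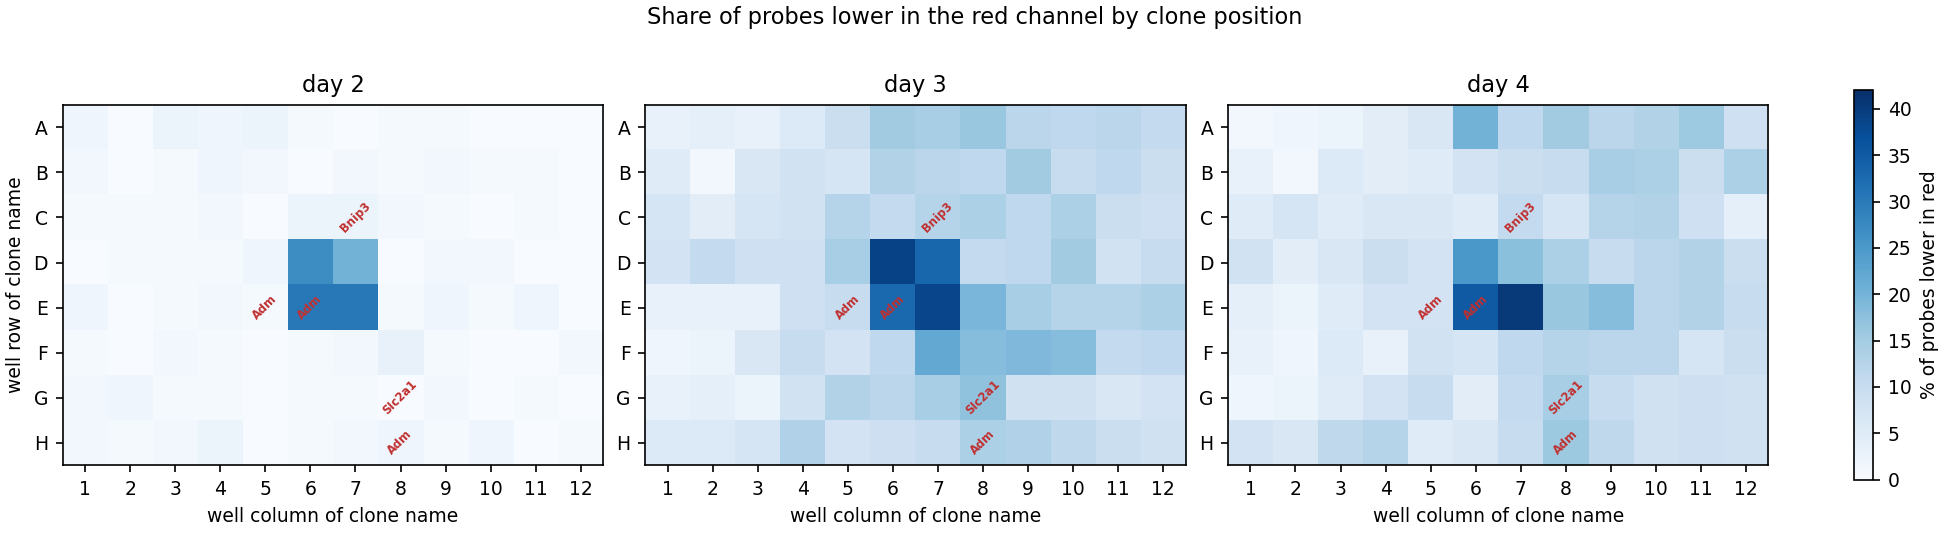
Share of probes lower in red (colour, percent) by the well row (vertical axis) and well column (horizontal axis) in the clone name, at each day, with the member genes written on their wells. Wells D06, D07, E06 and E07 stand apart at day 2 (20.1 to 30.2%), and 1 Adm clone, H3007E06, comes from among them.

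Set against the authors' deposited table, whose mean ratios are linear and red over green, Bnip3 stood at 0.893, 0.361 and 0.565 at the 3 days and was called down at day 3 and day 4. The authors' deposited table gave Slc2a1 as 0.903, 0.484 and 1.27 and called it down at day 3 only, with a day 4 p-value of 0.647. In the authors' deposited table Adm H3007E05 stood at 0.639, 0.259 and 0.385 and was called down at each day, with a p-value of 0.211 at day 2. H3001H08 was called down at day 3 (0.447) and day 4 (0.474) in the authors' deposited table, and H3007E06 had no ratio there. The 2 treatments of the data differ for Slc2a1 at day 4 and for H3007E06 on all 3 days, where the fit of ratios paired by array passed and the authors made no call. They also differ for Adm H3007E05 at day 2, where the fit did not pass.

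**Figure D4:**
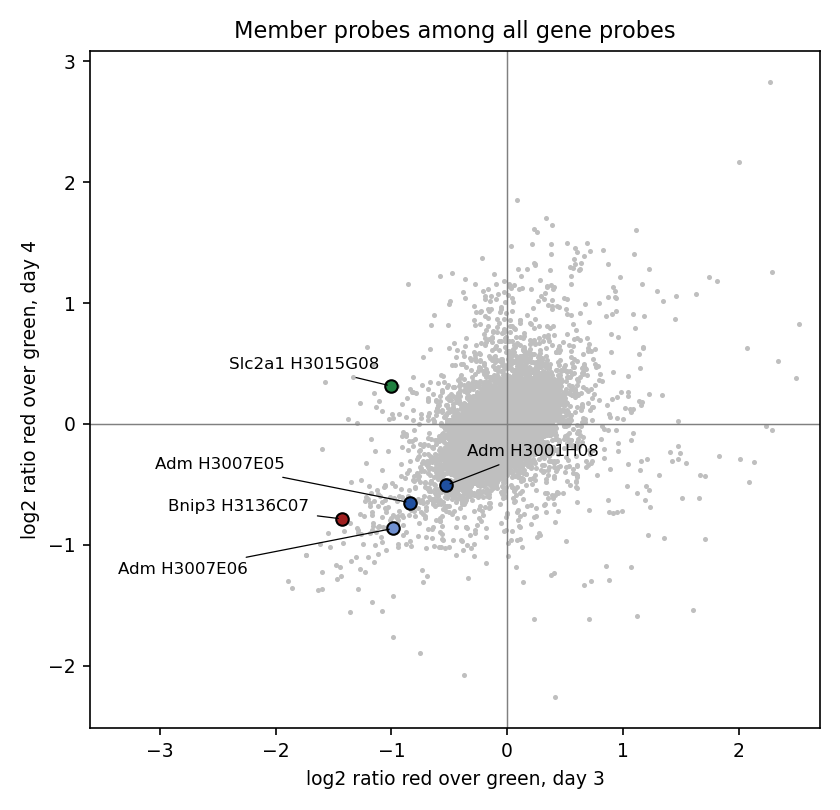
Log2 ratio of red over green at day 3 (horizontal axis) and day 4 (vertical axis) for gene probes (grey) and the 5 member probes (coloured). Bnip3 and Adm lie below 0 on both axes, and Slc2a1 is at -1.0 on the first and 0.31 on the second.

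Other genes of the pathway were read by the brightest probe of each. Some genes had a further probe that differed. At day 3 and day 4 the other Gpi1 and Ak4 probes were lower in red, where the brightest were not called. The same held for another Eno1 probe at day 2 and the other Tfrc probe at day 3. The other Arnt probe was not called at day 3, where the brightest was lower. Of the regulators of HIF, 5 of 13 listed were measured. At day 3, 2 were lower in red, beside 11.0% of all probes (median of the 5 ratios 0.09, against 0.004 over all probes) and none was higher, though 1 was with print-tip loess. Egln1, the main prolyl hydroxylase that marks HIF-1alpha, was -0.68 ± 0.096 at day 3 (adjusted p = 0.00013 by limma) and -0.54 ± 0.096 at day 4 (adjusted p = 0.000994), and it is itself a known HIF target. Arnt, the HIF partner subunit, was -0.29 ± 0.089 at day 3 (adjusted p = 0.0311). Hif1a, the oxygen-regulated subunit, was 0.17 ± 0.085 at day 3 (adjusted p = 0.18) and passed as higher at day 4, at 0.37 ± 0.085 (adjusted p = 0.00714). Its clone is noted as giving multiple bands. Hif1a was lost at day 4 without replicate 2, and the count of lower regulators at day 3 was 1 without replicate 2 or replicate 3.

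Of the other hypoxia targets 9 of 31 were measured: none passed at day 2, 4 were lower at day 3 and 3 at day 4, and none was higher on either day. With print-tip loess 1 of them was higher at day 3 and 2 at day 4. These counts stand beside 11.0% of all probes lower at day 3 and 9.45% at day 4. The list medians were -0.13 at day 3 and -0.04 at day 4. Ero1a, an oxidase of protein folding in the endoplasmic reticulum, was -0.55 ± 0.072 at day 3 and -0.47 ± 0.072 at day 4. Bnip3l, the close relative of Bnip3 that also serves mitophagy, was -0.40 ± 0.094 and -0.59 ± 0.094. Pfkfb3, which makes the activator of phosphofructokinase, was -0.34 ± 0.097 and then -0.86 ± 0.097. P4ha2, a collagen prolyl hydroxylase, was -0.39 ± 0.089 at day 3 and 0.15 ± 0.089 at day 4, where it did not pass. Car9, which is used as a hypoxia marker in many tissues, had both channels near background at day 2 and day 3 (signal-to-noise ratio under 1.4 on all arrays), so its ratio there is not informative. The day 3 count was 2 without replicate 2 and 2 without replicate 3. Probe H3031C12, named Ndr1 in the files and described as N-myc downstream regulated 1, was not counted because that symbol matches several RefSeq genes. It was higher in red at day 2 (0.50 ± 0.090, adjusted p = 0.00386, limma), 0.10 ± 0.090 at day 3 and lower at day 4 (-0.35 ± 0.090, adjusted p = 0.0139).

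Of 16 members listed under glycolytic enzymes, 10 were measured by symbol. Glycolytic enzymes showed 8 of these 10 lower at day 3 and 8 of 10 at day 4, with none higher and none called at day 2. Of all probes, 11.0% were lower at day 3 and 9.45% at day 4. Their median ratios were -0.52 at day 3 and -0.60 at day 4, against 0.004 over all probes. Pfkm and Pfkl, subunits of the phosphofructokinase step, were -0.74 ± 0.082 and -0.70 ± 0.091 at day 3. Pgam1 (phosphoglycerate mutase) was -0.68 ± 0.102 and Aldoa (aldolase) was -0.61 ± 0.090. The lowest at day 4 were Pfkl (-0.93 ± 0.091), Pgk1 (phosphoglycerate kinase, -0.91 ± 0.143), Aldoa (-0.80 ± 0.090) and Ldha (lactate dehydrogenase, -0.75 ± 0.113). The Pgk1 clone, H3023D06, comes from well D06, where 39.0% of probes were lower in red at day 3 and 25.2% at day 4. The part of the well in its ratio was not tested. Without replicate 2 the day 3 count was 5 of 10. Both probes named Pk3 in the files (pyruvate kinase 3), left uncounted for the same reason as Ndr1, were lower at day 3 (-0.29 ± 0.079 and -0.38 ± 0.076) and at day 4 (-0.48 ± 0.079 and -0.50 ± 0.076). At day 4 the 8 enzymes that passed were below 0 and Slc2a1, which supplies their substrate, was above it.

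Glucose transporters other than Slc2a1 were 2 of 12 by symbol, with 2 lower at day 3 and 1 lower at day 4. Of all probes, 11.0% were lower at day 3 and 9.45% at day 4. Slc2a4, the insulin-regulated GLUT4, was -0.36 ± 0.075 at day 3 with red not well above background, and Slc2a8 was -0.35 ± 0.083 at day 3 and -0.45 ± 0.083 at day 4. Without replicate 3 neither passed at day 3, and without replicate 1 a single one did. A further probe, H3044B02, carries no symbol but is described as facilitated glucose transporter member 3, and was picked out after its values were seen. It was -0.19 ± 0.089 at day 2, -0.09 ± 0.089 at day 3 and 0.80 ± 0.089 at day 4 (adjusted p = 1.22e-05, limma). Its intensity was high (1731 to 14345), while its signal-to-noise ratio reached 1.4 in no reading at day 2 and in all 6 at day 4.

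No receptor gene for adrenomedullin passed with signal above background. Calcrl, the receptor, was 0.34 ± 0.110, 0.19 ± 0.110 and -0.04 ± 0.110 at the 3 days, and Ramp2, its partner, was 0.27 ± 0.093, 0.15 ± 0.093 and -0.09 ± 0.093. None of these passed. Ackr3, a scavenger receptor, was the third of 3 measured of 9 listed; it passed at day 4 with both channels not well above background. In the BCL2 and mitophagy list 7 of 22 were measured by the symbols at hand. Bnip3l, already given, was the lower one at day 3 and at day 4. Mcl1, an anti-apoptotic BCL2 protein, was the 1 higher at day 4 (0.35 ± 0.111, adjusted p = 0.0416, limma). These single calls stand beside 11.0% of all probes lower at day 3, 9.45% lower at day 4 and 7.97% higher at day 4. Mcl1 by its brightest probe was lost without replicate 1 or replicate 3, and Bnip3l was lost at day 3 without replicate 3. The other Mcl1 probe, H3108E12, was higher in red at day 3 (0.327) and at day 4 (0.424). Fundc1, Map1lc3a, Gabarapl2, Becn1 and Opa1 had ratios between -0.15 and 0.24 and did not pass on any day.

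**Figure D5:**
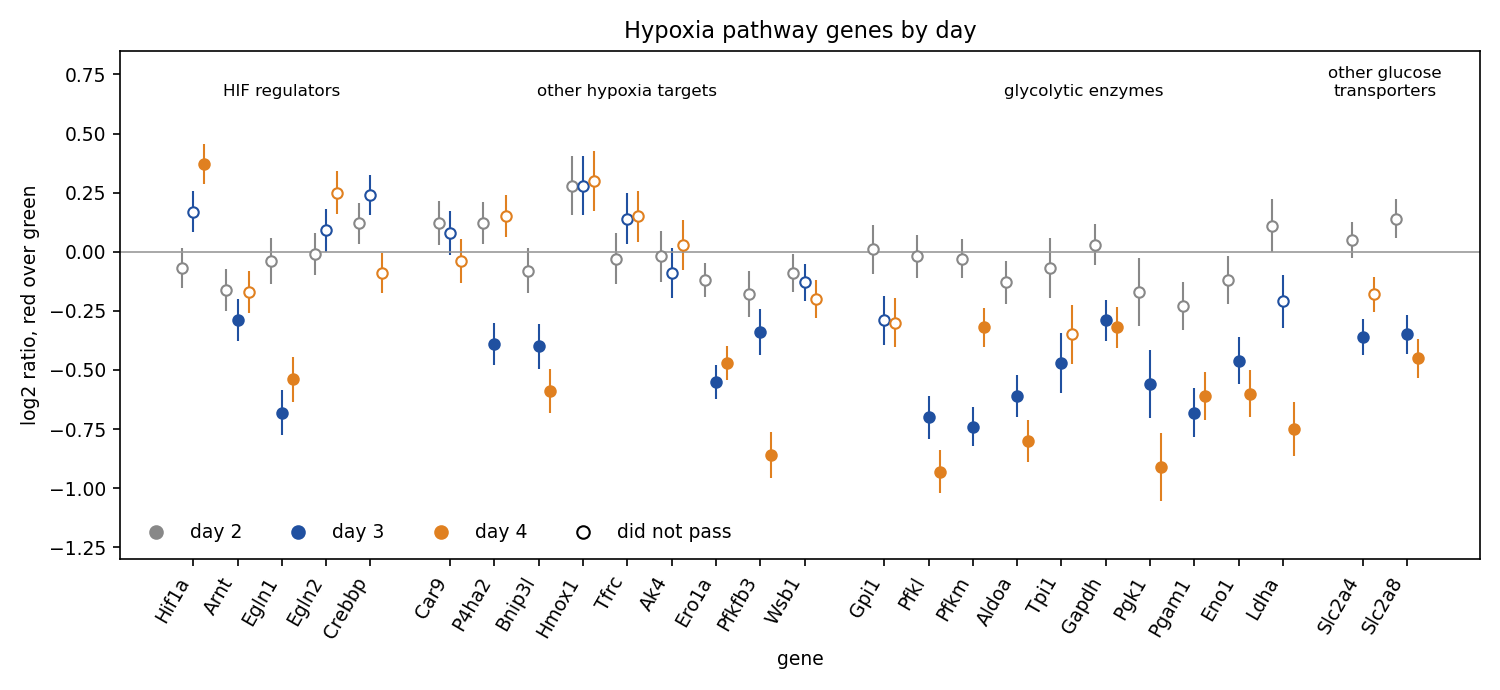
Log2 ratio of red over green with its standard error (vertical axis) for HIF regulators, other hypoxia targets, glycolytic enzymes and other glucose transporters (horizontal axis) at the 3 days; filled symbols passed the test. No listed gene passed at day 2, and 8 of 10 glycolytic enzymes were lower at day 3 and at day 4.

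Across the 18 single-channel samples the genes most like each member were found among 4017 genes by Pearson's r, as a description only: both channels of an array share their spots, and days share their differentiation stage. Bnip3 was most like Aldoa (r = 0.752), Naglu (r = 0.752), Rara (r = 0.738), Col6a4 (r = 0.729) and Tinf2 (r = 0.722). The Col6a4 clone comes from well D07. Adm H3007E05 was most like Nek1 (r = 0.857), Hrc (r = 0.848), Ptov1 (r = 0.834), Slc25a1 (r = 0.827) and Gsto1 (r = 0.789). The Gsto1 clone, H3095E06, comes from well E06. Slc2a1 was most like Tuba1a (r = 0.877), Marcks (r = 0.852), Yars (r = 0.845), Syne1 (r = 0.837) and Mtch2 (r = 0.813). Between the members r was 0.627 for Bnip3 and Adm, 0.503 for Bnip3 and Slc2a1 and 0.271 for Adm and Slc2a1.

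Markers of cell state differed between the channels on the same arrays. The pluripotency genes measured were Pou5f1 and Zfp42, whose summed intensity ran over the 3 arrays from 6511 to 9953 in red and 6344 to 12282 in green at day 2, and from 1088 to 1301 in red and 3078 to 5487 in green at day 4. Pou5f1, the pluripotency factor Oct4, was lower in red at day 3 (-0.76 ± 0.133) and day 4 (-1.9 ± 0.133), and Zfp42 was higher on both days. Green Zfp42 was not well above background at day 4. Blood markers (Gata1, Hbb-y and Hba-x) summed to -16 to 18 in red and -3 to 51 in green at day 2, with all 3 not well above background. At day 4 they summed to 427 to 877 in red and 67 to 156 in green. All 3 were higher in red then, against 7.97% of all probes. Gata1 was already higher at day 3 (0.59 ± 0.126, adjusted p = 0.00426, limma), with green not well above background. Hbb-y and Hba-x did not pass at day 3 by their brightest probes, but 3 other Hbb-y probes were higher at day 3 and at day 4. Pecam1, the endothelial marker measured, was higher in red at day 3 and day 4. Green was not well above background for Hbb-y at day 4 or for Pecam1 at day 3. Of 3 visceral endoderm markers, 2 were higher in red at day 4, beside the same 7.97% of all probes (list sum 889 to 1542 against 332 to 534). Primitive streak markers were represented by Eomes, since T was not well above background in any group, and the sum was 321 to 1199 in red against 121 to 493 in green at day 2, when the Eomes ratio was already 0.97 ± 0.107 (adjusted p = 3.41e-05, limma). The sum was higher in red at day 3 (2386 to 4486 against 1052 to 2071) and lower at day 4 (1508 to 1610 against 3109 to 4068). Fibroblast markers (Col1a2 and Dcn) summed to -38 to 376 in red and 42 to 242 in green over all days. Col1a2 was higher in red at day 2 (0.63 ± 0.106, adjusted p = 0.00291, limma), and Dcn was lower at day 4 (-0.29 ± 0.074, adjusted p = 0.0141) with both channels not well above background. The other Col1a2 probe was called higher at day 3 and day 4, and the other Dcn probe was called lower at day 2. The part of these cell states in the ratios of Bnip3, Adm and Slc2a1 was not tested.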

How the data were processed

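Spotted cDNA arrays with 2 colours were read for 18 samples on 9 arrays. Per the file headers, a deposited intensity is the median foreground of a spot less its background in 1 channel, without normalization. The deposited score of a spot is its signal-to-noise ratio from the scanner's analysis, per the file headers, and each spot has a flag and a PCR note for its clone. RNA was amplified in 1 round before labelling, per the labels' protocols. The authors' deposited ratio (fold) divides the scaled red by the scaled green value, and the deposited p-value is that of the authors' own test, per the file headers. The deposited value table holds the scaled intensity. Its DOX columns matched the red and its control columns the green channel in all 18 samples (relative tolerance 1e-06), so its scale is known and its direction is not.

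Computation used R 4.3.3 and limma 3.58.1. Flags of -75 or lower removed a spot. The normexp background model had an offset of 50, which shrinks ratios of dim spots. Each array was normalized by a single loess curve (span 0.3), in which control spots had no weight. The 9 log2 ratios were fitted with 1 mean for each day, leaving 6 residual degrees of freedom, with empirical Bayes moderation. Levels over time came from Aquantile single-channel log2 values, 9 samples in each channel. Tests were two-sided. "Not well above background" means a signal-to-noise ratio under 1.4 in all 3 arrays of the day; the scanner marks a spot not found by a flag of -50. Ratios were paired by array because each array held both samples. DOX and control samples of the same array deviated together from their group means (r from 0.798 to 0.906). Both channels are read from the same spots, so this cannot show that the samples were paired beyond sharing an array. Samples with the same replicate number on different days had r from -0.15 to 0.20.

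The array tables gave 8590 probes a symbol: 3934 were current, 3865 were updated through RefSeq (GRCm38.p6) and 791 stayed as deposited. RefSeq held promoters for all 3 genes. The members and lists were chosen with earlier results of these data known. Genes are named by rule: all member probes, up to 4 genes for each list and day that passed the test, by size of change (those dim in both channels passed over), and the 5 most alike genes for each member among those past 1.4 in at least 9 channels. List members that did not pass were added where a list had few calls. Alternatives were plain background subtraction, print-tip loess, median centring, a filter on dim probes, the deposited scaled values, each replicate left out, other models of pairing and spread, and quantile scaling. The fit was tested on simulated data with known changes.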

Additional observations from a re-analysis of the deposited data

Results flagged for a closer look

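The channel ratio of Bnip3 differed between days by a direct test in each pair. Day 3 minus day 2 was -1.26, day 4 minus day 3 was 0.64 and day 4 minus day 2 was -0.62. For Slc2a1 the differences were -0.85, 1.31 and 0.46 in the same order. For Adm by clone H3007E05, day 3 minus day 2 was -0.59 and day 4 minus day 2 was -0.40. These were singled out because the effect measured under the same contrast changed from one day to another.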

How the results depend on the processing

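Of 375 alternative values for the brightest probe of each member, 326 kept their direction and their side of the threshold, 42 lost the call and 7 changed sign. The 326 include values of results that had not passed and stayed so, so the 42 are not to be read as a share of calls. None of the 7 had passed. The cause of lost calls was not tested, except that leaving out a replicate removes 1 array of each day. Adjusted p-values are from limma. The day 3 ratios of Bnip3 and of Adm H3007E05 passed under each alternative.

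The replicate block, an added term over the arrays, ended the call of Adm H3007E05 day 4 minus day 2 (-0.40, adjusted p = 0.0551) and, for clone H3001H08, green day 4 minus day 2 (0.74, adjusted p = 0.0769), and changed no other call among the member probes. With no replicate block, so with the channels unpaired, 150 probes were called at day 3 against 3070. Bnip3 was then -0.79 at day 4 (adjusted p = 0.183), -1.26 for day 3 minus day 2 (0.9), 0.64 for day 4 minus day 3 (1.0) and -0.62 for day 4 minus day 2 (1.0). Adm H3007E05 was -0.65 at day 4 (0.181), -0.59 for day 3 minus day 2 (1.0) and -0.40 for day 4 minus day 2 (1.0). Slc2a1 was -1.0 at day 3 (0.571), 0.31 at day 4 (1.0), and -0.85, 1.31 and 0.46 for the day differences (each 1.0). In that fit no list gene was lower.

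Plain background subtraction ended Bnip3 day 4 minus day 3 (0.67, adjusted p = 0.0572) and day 4 minus day 2 (-0.65, 0.0649), Adm H3007E05 day 3 minus day 2 (-0.83, 0.0648) and day 4 minus day 2 (-0.56, 0.0921), its green rise (1.27, 0.218) and Slc2a1 day 4 minus day 2 (0.48, 0.0614). The deposited scaled values ended the same differences of Adm H3007E05 (-1.54, adjusted p = 0.112, and -0.74, 0.364) and that of Slc2a1 (0.49, 0.0542). Leaving out spots flagged as not found, chosen after seeing the data, ended Adm H3007E05 day 4 minus day 2 (-0.34) and its green rise (0.69).

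With 1 replicate left out, day 4 minus day 3 of Bnip3 ran from 0.51 to 0.85 and day 4 minus day 2 from -0.70 to -0.55. For Adm H3007E05, day 3 minus day 2 ran from -0.65 to -0.53, day 4 minus day 2 from -0.49 to -0.36 and the green rise from 0.79 to 0.86. Slc2a1 ran from 0.24 to 0.39 at day 4 and from 0.37 to 0.51 for day 4 minus day 2.

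Signs turned in differences that had not passed. With 1 replicate left out, Bnip3 red day 4 minus day 3 ran from -0.19 to 0.28 (-0.03 with print-tip loess). Adm H3007E05 red day 3 minus day 2 ran from -0.05 to 0.28 and green day 4 minus day 3 from -0.02 to 0.31. Slc2a1 red day 3 minus day 2 ran from -0.47 to 0.11 and green day 4 minus day 2 from -0.13 to 0.66. For H3001H08, the ratio's day 4 minus day 3 ran from -0.30 to 0.30 and was -0.27 with plain subtraction, -0.07 with median centring and -0.21 without spots not found. Its red day 3 minus day 2 ran from -0.13 to 0.09 (-0.09 with quantile scaling). For H3007E06, the ratio's day 4 minus day 2 ran from -0.32 to 0.02 (0.09 with print-tip loess), its red day 3 minus day 2 from -0.10 to 0.14, red day 4 minus day 2 from -0.47 to 0.05 and green from -0.23 to 0.02.

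Outside the unpaired fit, glycolytic enzymes lower at day 3 numbered 5 to 9 and at day 4 numbered 6 to 10, and other hypoxia targets lower at day 3 numbered 2 to 4. Signal over background limits Adm most: 2 of its 3 clones were under the limit in most readings.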
